A study of Drosophila melanogaster with 9 samples.

Results

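The 3 arrays of wild-type Drosophila embryos at dorsal closure were described alone, as 3 of the 9 arrays in the series. They were chosen by their titles, and no measured value entered the choice. The series asked which genes respond to JNK signalling during dorsal closure and also holds 3 arrays of embryos with activated Hemipterous and 3 of hep mutants, which were not used. The wild-type embryos carried the eye-colour marker w and no transgene or driver is listed for them. Whole embryos without their chorion were collected at stages 13 to 14, after about 9 h at 25 °C, and lysed as a mixture of all tissues. Collections were kept where over 85% of embryos were at these stages by in situ hybridisation for dpp. The labels call the 3 RNA samples of a group independent, and each labelling started from 2 µg.

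Dorsal closure is the movement in which both sheets of lateral epidermis are drawn over the amnioserosa, a thin extraembryonic tissue, and fuse along the dorsal midline. The JNK kinase cascade works in the leading row of epidermal cells, where it switches on dpp, a BMP ligand, and puc, a phosphatase that feeds back on the cascade. In the same period the germ band has retracted, muscles and trachea are forming, neurons are differentiating, hemocytes migrate, and the epidermis prepares to lay down cuticle. A transcriptome of whole embryos at this time therefore mixes early patterning genes on their way out with tissue genes on their way in.

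The arrays measured 10844 named genes, each represented by its probe set with the highest mean. Genes were ranked by mean log2(value + 1), and the percentile of a gene is the share of genes at or below its mean. Genes above percentile 80 are called high, genes at or under percentile 20 low, and the others middling, so 20% of all genes are high and 20% low by construction. All percentiles rank array signal. Probe sets differ in how well they bind, so a higher rank is not by itself a greater number of transcripts, and in whole embryos fewer cells of a type and less RNA per cell cannot be told apart. No test was run, because a single group was described. 3 arrays limit the precision.

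The deposited signals ran from 29 to 1270343. The signal at percentile 20 was 170.5, at percentile 50 it was 795, at percentile 80 it was 3185 and at percentile 99 it was 64307. Signal was concentrated in few genes. The 108 genes of the top 1% held 44.8% of the summed mean signal, and 160 genes held 50% of it. These shares take the deposited values as they stand, and the scale of those values is uncertain, as described under the processing. The low end was set against probe sets for mouse and yeast transcripts, which a fly sample should not contain. Those 8 control sets had means from 46.7 to 174, and 2202 genes (20.3%) lay below the highest of them. For those genes the arrays gave no level that stood apart from a probe set without its target, and their order carries little information. Some sets for bacterial transcripts read higher, up to 368 on an array, so genes a little above 174 are not clearly off the floor. The deposited values came with no detection calls.

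**Figure D1:**
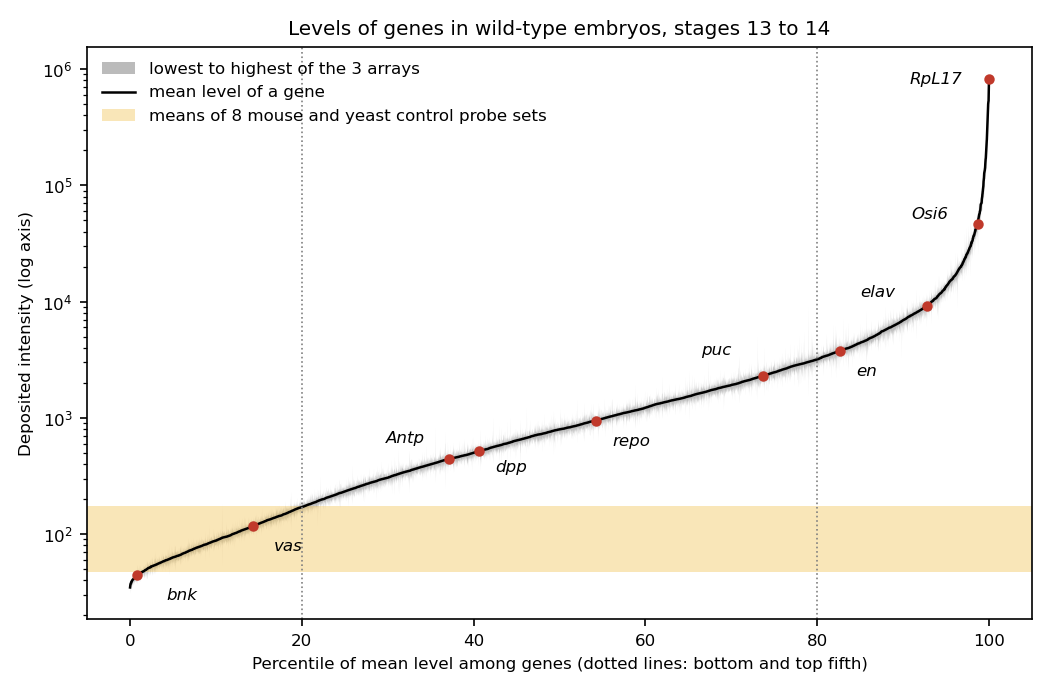
Mean level of each of the 10844 genes (vertical axis, deposited intensity on a log axis, back-transformed from the mean of log2(value + 1)) against its percentile (horizontal axis). The grey band spans the lowest to the highest of the 3 arrays, the yellow band the means of the 8 mouse and yeast control probe sets, the dotted lines mark percentiles 20 and 80, and red points mark named genes from bnk at the floor to RpL17 at the top.

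Ribosomal proteins led the ranking. RpL17, a protein of the large ribosomal subunit, ranked first, with signals of 926113, 661712 and 882528 on arrays 1, 2 and 3. RpS20, of the small subunit, followed with 814961, 790692 and 794152, and RpL3 with 820760, 619032 and 714501. Array 2 was the lowest of the 3 arrays for all of these. Rack1, a scaffold protein seated on the small subunit, ranked 4 (728579, 648621 and 673387). Of 91 listed cytosolic ribosomal protein genes, 35 were measured, each by a probe set assigned to 1 gene. The others were not analysed, so the counts cover only part of the family. Of the 35 measured genes, 30 were high and 2 were low, and 26 of the 100 highest genes were on this list. The median percentile of the ribosomal list was 99.8.

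The ribosomal genes away from the top were mostly second copies. RpL10Aa stood at the floor, with 48, 49 and 50, while RpL10Ab ranked 6 with 628561, 571273 and 577086. RpL22-like, a paralogue known from the male germ line, gave 113, 95 and 104. RpS10a, RpS28a and RpS19b, also duplicates, lay at percentiles 26.0, 32.3 and 45.5. RpS5b was an exception among the copies, at percentile 99.7. Probe sets of such near-identical genes can bind each other's transcripts, so the high copies are uncertain.

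Translation factors repeated this division. Of 42 measured, 28 were high and 7 low, with a median percentile of 94.3. eIF4A, the helicase that unwinds mRNA leaders, gave 479851, 417858 and 488536, and eEF1gamma, an elongation factor subunit, lay at percentile 99.6. The cap-binding protein eIF4E1 stood at percentile 97.9, whereas its relatives eIF4E3, eIF4E4 and eIF4E5 stood at 47.9, 5.44 and 3.62. eEF1alpha2 lay at percentile 29.9 with signals of 306, 302 and 302. Mitochondrial ribosomal proteins, which serve the organelle's own translation, formed a more even group: 39 of 64 were high and 0 were low, with a median percentile of 84.6, from mRpL41 at 24.7 to mRpS16 at 96.6.

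The energy and protein-turnover machinery was also high, again with low copies beside it. Of 69 oxidative phosphorylation genes, 48 were high and 8 low. blw, the alpha subunit of ATP synthase, gave 141740, 113864 and 163137, and COX4, of cytochrome c oxidase, 124583, 97435 and 108811. The 17 genes whose names carry the suffix L for a like copy had a median percentile of 27.5, against 96.2 for the other 52. COX4L, for example, measured 90, 104 and 83. ATPsynbetaL, with 6267, 7119 and 5522, was the only high L copy, above ATPsynbeta itself at percentile 81.7. In the proteasome, which degrades ubiquitin-tagged proteins, the 13 genes named as T or R copies lay between percentiles 6.22 and 48.3. The other 26 subunits lay between 71.8 and 97.5, led by Prosalpha2 (29084, 24794 and 25423), so the groups did not overlap. Several T copies are known as testis-specific subunits. These copy groups were formed from the names after the values had been seen.

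Ubiquitin, chaperone and secretory genes followed, with 4 chaperone genes and 2 secretory genes among the 100 highest. The polyubiquitin gene Ubi-p63E gave 290428, 162558 and 303999, and Ubi-p5E 323402, 208502 and 394215, both lowest on array 2. Sec61alpha, Sec61beta and Sec61gamma, which form the channel for proteins entering the endoplasmic reticulum, lay at percentiles 99.8, 99.6 and 98.6. Of 12 secretory genes, 10 were high, among them the COPI subunits gammaCOP, alphaCOP and betaCOP at 97.1, 96.1 and 96.0. Of 23 chaperone genes, 15 were high. They were led by Gp93, the chaperone of the endoplasmic reticulum, at 99.6 and by the constitutive cytosolic chaperone Hsc70-4 at 99.4. All 8 chaperonin ring subunits CCT1 to CCT8 lay between 86.1 and 99.1. The stress-inducible Hsp68 was middling and uneven, at 406 and 421 on arrays 1 and 2 and 1021 on array 3.

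The vacuolar proton pump, which acidifies organelles, was mixed. Of 29 subunit genes 13 were high and 3 low, from Vha26 at percentile 98.0 to Vha14-2 at 2.46, with signals of 54, 52 and 51. Glycolytic enzymes spread from Ald1, the aldolase, at 98.3 to the hexokinase Hex-A at 43.1, and 3 of 8 were high.

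Tubulins and actins separated by isoform. alphaTub85E (123064, 109794 and 128629) and betaTub60D (124922, 79345 and 130413), the latter known from muscle, both lay at percentile 99.4. The maternal isoform alphaTub67C lay at 28.4 with 304, 248 and 293. The testis isoform betaTub85D lay at 2.07 with 46, 54 and 52. Act87E, an actin of larval muscle, gave 111835, 104304 and 107514, and Act79B 21602, 17732 and 21721. Act88F, the actin of adult flight muscle, was in the range of the foreign controls on each array (58, 72 and 58). Act5C and Act57B were not analysed here.

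Cell cycle genes were largely middling. Of 21 replication and cell cycle genes, 4 were high and 0 low. The mitotic cyclins CycB and CycB3 lay at percentiles 98.1 and 97.8, with CycB at 35330, 32318 and 33245. PCNA, the sliding clamp of DNA polymerase, lay at 94.6. The origin-recognition subunit Orc4 gave 386, 381 and 342. twe, the Cdc25 phosphatase of meiosis, was lower still, at percentile 22.2 with 175, 219 and 197. CycE, the S phase cyclin, and Mcm2, a helicase subunit, lay at 62.1 and 53.7.

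Many of the top genes were outside the lists. Of the 100 highest genes, 52 were in none of the 51 gene lists examined, and 12 had only a CG number. The lists do not cover every housekeeping gene, so absence from them does not give a gene another role. CG9184 ranked 7 with 542968, 538658 and 516864. Obp99a, of the odorant-binding protein family, ranked 8 with 605576, 408098 and 605078. rut, an adenylyl cyclase known for its part in learning, ranked 20 with 302753, 358147 and 487631. CG34347 and CG13674 ranked 18 and 22. mam, a coactivator of Notch targets, gave 125709, 182776 and 209444. Nrt, an adhesion protein of neural and epidermal surfaces, gave 161769, 200518 and 143109. For 3 of these the gene's other probe sets gave other levels: the lowest set of CG34347 averaged 113, that of Nrt 138 and that of mam 749, on the same arrays. The place of such genes therefore rests on 1 probe set each, and which set reads the transcript was not tested.

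**Figure D2:**
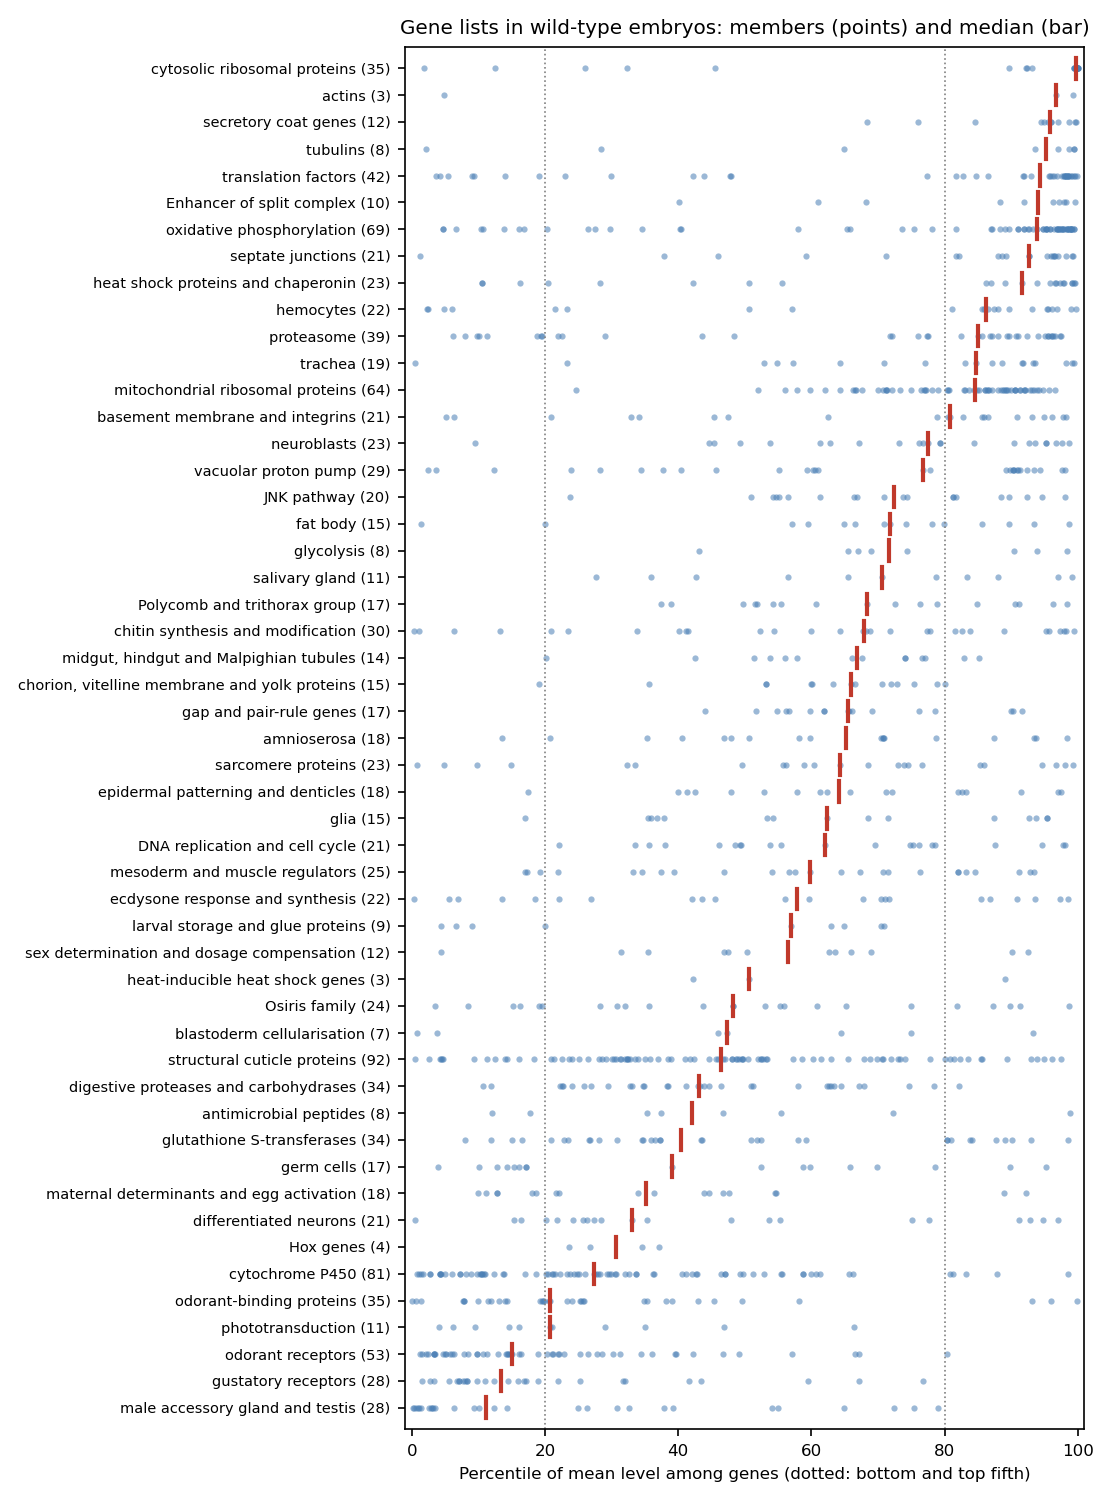
Percentile of every measured member (points) and the median (red bar) of 51 gene lists, with the number of measured members in brackets and lists ordered by median. Dotted lines mark percentiles 20 and 80. The cytosolic ribosomal proteins sit at the right edge, tissue programmes spread over the whole range, and chemoreceptor and male reproductive genes crowd the left.

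The stage was read from genes of known timing. dpp, the transcript used by the submitters to check their collections, gave 483, 491 and 575, which placed it at percentile 40.6. It is made in narrow rows of cells at this stage. Genes of cellularisation, which are transcribed in the blastoderm hours earlier, were unequal. bnk gave 44, 45 and 43 and halo 59, 62 and 52, both within or below the range of the foreign controls. nullo, by contrast, gave 2232, 2741 and 2403 (percentile 74.9), slam 1493, 1343 and 1636, and Sry-alpha 678, 681 and 646. These 3 genes stood above that range on each array, and whether their sets read a transcript of this stage was not tested.

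Maternal determinants were mostly low or middling. Of 18 measured, 6 were low and 2 high, and the median percentile was 35.2. bcd, whose RNA marks the egg's anterior, gave 130, 195 and 129, and osk, which assembles the germ plasm, 94, 115 and 108. swa, needed to localise bcd RNA, gave 110, 105 and 101. The high members were stau, an RNA-transport protein (7407, 10004 and 8485), and Tl, the receptor of dorsoventral patterning (6151, 5831 and 6722). Both are known to act again later, in neural and immune or muscle tissue.

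Gap and pair-rule genes, which divide the blastoderm into segments and many of which are used again in the nervous system, were not at the floor. Of 17 measured, 0 were low, 3 were high and the median percentile was 65.5. eve gave 6823, 7001 and 7368, kni 9736, 6833 and 7984, and hry 7265, 8156 and 5544. ftz lay at percentile 78.5 and tll, used again in the brain, at 44.0. Of the Hox genes, which assign segment identity, 4 were measured, all middling: Antp gave 438, 380 and 511, pb 393, 343 and 430, Scr 231, 280 and 265, and Dfd 222, 213 and 207. Scr and Dfd lay below 368, the highest signal of a bacterial control set, so they are not clearly off the floor. The probe sets of the other 4 listed Hox genes were not analysed here.

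In the epidermis, junction genes were high and patterning genes were spread over the range. Septate junctions are the ladder-like seals of fly epithelia, and 16 of 21 of their genes were high, with a median percentile of 92.6. Tsf2, an iron-binding junction protein, gave 88578, 74563 and 88368, and the immunoglobulin protein Lac 69213, 74561 and 77943. The claudin kune lay at percentile 98.3, and the core scaffold cora at 96.6 with 20018, 18980 and 20018. Nrx-IV, the neurexin partner of cora, lay at 88.0. nrm was at the floor with 41, 49 and 48. The basolateral polarity gene dlg1 was middling, at percentile 45.9.

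Among patterning genes of the epidermis, en, which defines posterior compartments, gave 3809, 3701 and 3805, which differed by little over the arrays. The hedgehog receptor ptc was less even, with 3389, 2997 and 5909. hh itself lay at percentile 39.9 with 486, 500 and 505, and ci, the transcription factor downstream, at 53.0. The highest members of the list were other kinds of genes: spi, an EGF ligand, gave 31091, 20286 and 30262, neo, a zona pellucida protein of denticles, 24326, 20805 and 20632, and sn, the fascin that bundles actin, 6911, 7651 and 9543. Other genes of the epidermal surface lay lower, with the denticle regulator ovo at percentile 65.8, sha at 41.4 and dy, a cuticular zona pellucida protein, at 17.5. Of 18 genes on this list 6 were high and 1 was low.

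The amnioserosa list had 4 high genes among 18. Ance, a peptidase made by the amnioserosa, gave 45334, 35014 and 37663. The transcription factors tup and Doc1 lay at percentiles 93.7 and 93.4, with tup at 8609, 15263 and 8931 and Doc1 at 9967, 9587 and 10884. zen, which specifies the tissue, lay at 78.8, and C15, a homeodomain factor of the same tissue, at 70.8. tup is one of the U-shaped group genes, which maintain the amnioserosa. Others of that group were middling: peb gave 1553, 1483 and 3430 and ush 755, 736 and 971. Kr, another regulator of this tissue, gave 1311, 1096 and 1214. tup, Doc1, Kr and Egfr are also expressed in other tissues, so their levels are not those of the amnioserosa alone. usp, the partner of the ecdysone receptor, lay in the range of the foreign controls with 116, 101 and 116.

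The JNK cascade itself was present at middling to high signal, with 8 of 20 genes high and 0 low. bsk, the JNK, gave 8151, 9668 and 8559, and hep, the kinase that activates it, 3567, 2878 and 4044. The upstream kinase msn lay at percentile 88.5 and slpr, a mixed-lineage kinase, at 61.3. puc, the phosphatase target, gave 2550, 2016 and 2347. Of the AP-1 subunits, Jra, the fly Jun, gave 2293, 1955 and 1779 and lay at 71.0. kay, the fly Fos, lay at 23.8 with 202, 266 and 187, near the range of the foreign controls. aop, an ETS repressor that acts with JNK signalling, was the highest of the list at 98.1.

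Genes of chitin and cuticle covered the whole range. Of 30 genes of chitin synthesis and modification 10 were high and 4 low, with a median percentile of 67.9. The highest were the deacetylases verm and serp, which shape the tracheal lumen, at percentiles 99.4 and 98.3, with obst-A and Idgf4, of chitin-binding and chitinase-like families, at 97.9 and 97.3. mmy, which makes the chitin precursor, gave 18286, 14162 and 14236, and kkv, the chitin synthase, 2956, 2542 and 2969. obst-H and Idgf1 were at the floor, with obst-H at 39, 43 and 39, and obst-G gave 68, 69 and 69.

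Of 92 structural cuticle protein genes, 13 were high and 13 were low, and the median percentile was 46.4. The Tweedle gene TwdlM gave 24160, 22649 and 32041 and TwdlJ 16777, 17875 and 16310, while Cpr64Aa and Ccp84Ad, of the main cuticle protein family, lay at 94.9 and 93.9. Cpr67Fa2 gave 40, 43 and 42, and Edg78E, a pupal cuticle gene, 59, 64 and 60. Osiris genes, which are transcribed together in cuticle-forming epithelia, covered the range just as widely. Osi6 gave 55020, 72913 and 25712, Osi14 7998, 10006 and 6164, and Osi23 53, 55 and 62. Of 24 measured, 5 (20.8%) were high and 6 (25%) low, near the 20% of all genes in each of these classes.

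**Figure D3:**
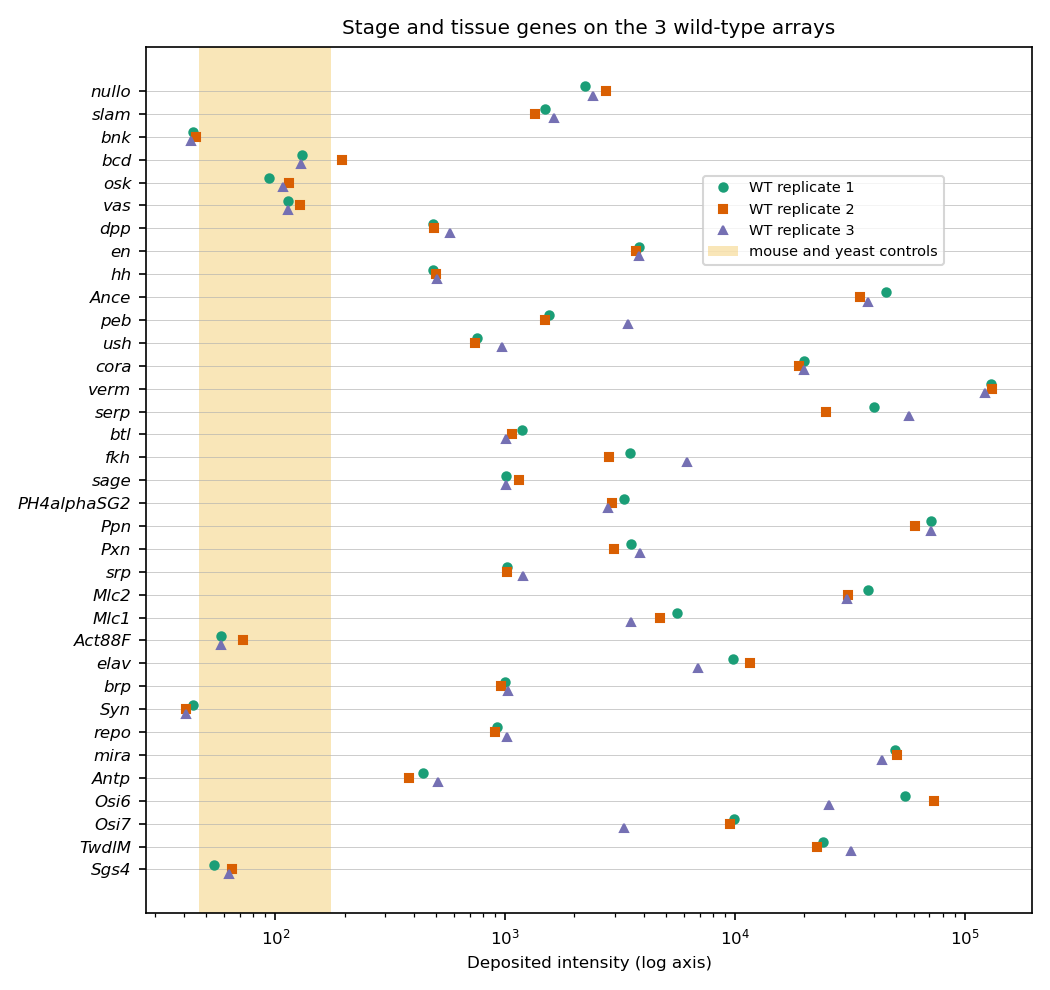
Deposited intensity (horizontal log axis) of 35 stage and tissue genes on WT replicates 1 (circles), 2 (squares) and 3 (triangles). The yellow band spans the means of the 8 mouse and yeast controls. Most triplets lie close together, whereas peb, fkh, Osi6 and Osi7 have replicate 3 apart, serp is spread with replicate 2 lowest, and bnk, Syn, Act88F, osk and vas lie in or below the band.

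Tracheal genes, for the branching airway, had 11 high members of 19 and a median percentile of 84.7. The nuclear protein rib gave 67069, 84649 and 60047, esg, a fusion-cell factor, 11607, 9104 and 10741, and the membrane protein uif 11348, 9088 and 9101. The defining receptor btl was middling, at 1180, 1075 and 1011, and its ligand bnl was at the floor with 40, 45 and 40. bnl is made in small groups of cells around the branches. The matrix gene Gasp, a later product of the luminal coat, lay at percentile 64.3. trh was not analysed here.

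Salivary gland genes, 11 measured, had 4 high and 0 low members. The defining factors fkh and sage lay at percentiles 83.3 and 56.5, with fkh at 3501, 2818 and 6160 and sage at 1004, 1145 and 1008. Papss, which supplies activated sulfate for secreted sugars, gave 19098, 26345 and 20104, and PH4alphaSG2, a prolyl hydroxylase of this gland, 3278, 2924 and 2802. The larval glue genes, secreted by the same gland much later, were unequal. Sgs4 and Sgs3 lay in the range of the foreign controls, with Sgs4 at 54, 65 and 63, while Sgs7 gave 1867, 1949 and 2015 and Sgs8 1330, 1449 and 1426. Whether the sets of Sgs7 and Sgs8 read those transcripts was not tested.

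Muscle genes were spread over the range. Of 23 sarcomere genes 6 were high and 4 low. The myosin light chain Mlc2 gave 37889, 30965 and 30542, and Actn, which crosslinks actin at the Z-disc, 15189, 11264 and 10802. Mlc1 gave 5569, 4706 and 3540, up, the troponin T, 2833, 2173 and 1994, and Tm2, a tropomyosin, 1220, 977 and 876. Array 3 was the lowest for those 5 genes and for 12 of the 23 on the list, against 32.2% of all genes. TpnC4, a troponin C of adult flight muscle, was at the floor with 49, 44 and 38. bt, the giant kinase projectin, was low, with 125, 132 and 108.

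Regulators of the mesoderm were spread over the range. Of 25 measured, 7 (28%) were high and 3 (12%) low, against 20% of all genes in each class. sr, which specifies tendon cells, gave 8011, 7187 and 8172, and bap, of the visceral mesoderm, 3396, 4030 and 3466. twi, the early mesoderm determinant, lay at percentile 76.3, the myoblast fusion receptor sns at 84.5, and nau, the fly MyoD, at 34.6. The FGF receptor htl was low, with 142, 119 and 163. The defining muscle genes Mhc and Mef2 were not analysed here.

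Genes of neural progenitors and of differentiated neurons both covered a wide range. Of 23 neuroblast genes 9 were high and 1 low, with a median percentile of 77.5. mira, the adaptor that sends fate determinants into one daughter cell, gave 49652, 50747 and 43722. sna, of the Snail family, gave 28355, 24962 and 27832, and the determinants brat and pros lay at 96.7 and 95.3. The proneural gene ac was low, with 88, 92 and 75, and ase lay at 45.3.

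Of 21 genes of differentiated neurons, 4 were high and 3 low, and the median percentile was 33.1. elav, the RNA-binding protein that marks all postmitotic neurons, gave 9750, 11572 and 6901, and its relative fne 10705, 12808 and 14684, so that array 3 was the lowest for one and the highest for the other. The adhesion protein Nrg, also a septate junction gene, lay at 97.0 and the vesicle-fusion protein Rop at 91.2. The vesicle release genes nSyb, Rab3 and Syn lay at 27.4, 15.3 and 0.539, with Syn at 44, 41 and 41. para, the voltage-gated sodium channel, gave 134, 144 and 125, and VGlut, the glutamate transporter of motor neurons, 198, 249 and 224. brp, of the active zone, and Gad1, which makes GABA, were middling at 55.3 and 53.7.

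Of 15 glial genes 5 were high and 1 low, with a median percentile of 62.3. repo, the defining factor of lateral glia, gave 925, 905 and 1015. gcm, which starts glial and hemocyte fates, gave 5265, 4997 and 6176, loco, a regulator of G protein signalling, 9527, 8768 and 9017, and Gs2, a glutamine synthetase, 15465, 12665 and 16566. moody, a receptor of the blood-brain barrier, and wrapper, of midline glia, lay at 68.5 and 62.3.

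Genes of blood cells and their matrix were often high. Hemocytes of the embryo spread from the head and secrete basement membrane, and 14 of 22 of their genes were high, with a median percentile of 86.2. Ppn, a matrix proteoglycan of hemocytes, gave 71033, 60560 and 71164, and the crystal-cell enzyme PPO2 23880, 19413 and 20845. Pxn, the defining peroxidasin, gave 3507, 2968 and 3853, and srp, the GATA factor of blood and fat body, 1022, 1021 and 1197. Nplp2 was the highest of the list, at 218205, 192010 and 308275. Markers of larval hemocytes were low: Hml gave 54, 69 and 64 and NimC1 53, 59 and 44. lz, which specifies crystal cells, lay at percentile 5.99.

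Of 21 basement membrane and integrin genes 12 were high and 2 low. The collagen IV chains Col4a1 and vkg gave 5586, 4521 and 4866, and 4756, 4868 and 4198. The laminin subunits LanB2 and LanA lay at 97.7 and 96.2. rhea, the talin that links integrins to actin, gave 37195, 36608 and 36612, which differed by little over the arrays. mys, the main integrin beta subunit, lay at 80.6, scb, an alpha subunit, at 32.9, and ItgaPS5 at 5.08.

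The fat body list had 4 high members of 15. apolpp, the lipoprotein that carries lipids in the blood, gave 44905, 55923 and 52905, and its transfer partner Apoltp 9349, 10991 and 10214. Lsp2, a storage protein of larvae, was middling at 1641, 1396 and 1528, and AkhR, the receptor of adipokinetic hormone, was at the floor with 49, 44 and 49.

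Gut genes were middling as a group, with 2 of 14 high and 0 low and a median percentile of 66.9. bowl, of foregut and hindgut, lay at 85.2, GATAe, the factor that keeps midgut identity, at 76.7, and byn, of the hindgut, at 67.7. Digestive enzymes lay lower, with 1 of 34 high and 2 low: betaTry, a trypsin, gave 3379, 4297 and 3391, and Jon99Fi 80, 53 and 183.

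Germ cells are few in the embryo. Of 17 germ-line genes 8 were low and 2 high. vas, the helicase that defines germ cells, gave 113, 128 and 113, and piwi, of the small-RNA pathway, 77, 98 and 90. The high members are also expressed outside germ cells: wun2, a lipid phosphatase that guides germ cell migration, gave 16543, 12265 and 13928, and gcl, a nuclear-envelope protein, 7340, 6774 and 6299. The median percentile of the list, 39.1, dropped to 18.8 when genes with several probe sets were left out.

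The Notch targets of the Enhancer of split complex, with the related gene Tom, were among the high groups: 7 of 10 were high and 0 low, with a median percentile of 94.1. The HLH genes among them keep neighbouring cells from taking the same fate. Tom gave 157782, 136577 and 151874, E(spl)mbeta-HLH 35469, 27660 and 47183, and E(spl)m7-HLH 31763, 27087 and 37694. The lower members were E(spl)m5-HLH, E(spl)mdelta-HLH and E(spl)m6-BFM, the last at 499, 414 and 616.

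In the ecdysone group, 6 of 22 genes were high and 5 low. The imaginal-disc response genes ImpE2 and ImpL2 gave 55376, 44389 and 31418, and 16747, 19409 and 43319, so array 3 was the lowest for the first and the highest for the second. The nuclear receptors Hr4 and Hr3, early responders to the hormone, lay at 93.6 and 71.6, and EcR, the receptor itself, at 70.5. ftz-f1, which follows the hormone pulse, was in the range of the foreign controls with 63, 72 and 60. spo, an enzyme of hormone synthesis, lay below that range with 40, 42 and 40.

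Regulators of chromatin and of sex were mostly middling. Of 17 Polycomb and trithorax group genes 5 were high and 0 low. mor, a subunit of the Brahma remodelling complex, gave 43580, 43737 and 39903, the Polycomb gene Pc lay at percentile 76.4 and the histone methyltransferase gene E(z) at 51.8. Sxl, the switch gene of sex determination, gave 10838, 7155 and 9290. msl-2, which limits dosage compensation to males, gave 1447, 1637 and 1747, and dsx, which acts at the end of the pathway, 65, 61 and 54.

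Chemoreceptor and male reproductive genes, which serve the larva and the adult, were mostly low. Of 53 odorant receptor genes 30 were low and 1 was high, with a median percentile of 15.1. For 28 gustatory receptors the counts were 19 low and 0 high, and for 28 genes of the male accessory gland and testis 16 low and 0 high. Acp26Aa, a seminal peptide, gave 34, 43 and 39, and Orco, the shared odorant co-receptor, 256, 218 and 233. Phototransduction genes of the eye had 5 low and 0 high members of 11. Of 35 odorant-binding proteins 16 were low, and 3 were high: Obp99a, Obp99c (19028, 15228 and 15985) and Obp56a (10849, 8295 and 10383).

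Some genes of these families stood well above the floor. Or22c gave 3211, 3305 and 3285 and Gr8a 2689, 2852 and 2611, with little spread. Genes for eggshell and yolk, which are transcribed in the adult female, were middling: 13 of 15 lay between percentiles 20 and 80, with Cp16 at 3217, 2964 and 2864, Vm26Aa at 2801, 3639 and 3209, and Yp1 at 1509, 1817 and 1594. Mst98Ca, a sperm-tail gene, gave 2856, 3104 and 3135. A steady signal on all arrays does not show that the transcript was there, since sets for foreign transcripts were steady too (a mouse Il2 set gave 166, 179 and 178), and whether these sets bind other transcripts was not tested.

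Both detoxification families spread from high to low members. Of 81 cytochrome P450 genes 28 were low and 5 high, with a median percentile of 27.4. Cyp6d5 gave 46534, 42161 and 38947 and Cyp4e2 5334, 6526 and 5300, whereas Cyp313a5 gave 39, 52 and 41. Of 34 glutathione S-transferases 10 were high and 4 low: GstD1 gave 44469, 38793 and 46741 and GstO1 81, 73 and 77. Among 8 antimicrobial peptide genes, Drsl5 gave 72162, 36051 and 71498, while the inducible Drs gave 100, 104 and 96.

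Genes known only by a CG or CR number ranked lower than named genes. Of 4489 such genes 11.7% were high and 26.1% low, against 25.9% and 15.7% of the 6355 named genes. The share of genes with over 1 annotated transcript was 37.1% for the low genes and 65.2% for the high ones. By chromosome, the median percentile was 55.2 for 1763 genes of X and between 46.4 and 50.7 for the others. Chromosome 4, with 57 genes, had 29.8% high and 35.1% low genes.

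Neighbouring genes were somewhat alike in level. The mean gap between adjacent genes was 30.6 percentile points, against 33.3 over all pairs of genes. The longest run of low neighbours held 13 genes on 2L, from Ku80 to beat-Ic, and included Tektin-A and t-Grip91. The longest run of high neighbours held 7 genes on 2L, from Rtnl1 to eIF3h, and contained the collagen genes vkg and Col4a1, which share a promoter region. A run of 6 high genes on 3R lay in the Enhancer of split complex, and a run of 6 low genes on 2R consisted of P450 genes, from Cyp6a17 to Cyp6a21. The order of genes came from RefSeq.

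The 3 arrays gave nearly the same ranking. Across genes, which are not independent replicates, Pearson's r was 0.995 for arrays 1 and 2, 0.996 for 1 and 3 and 0.995 for 2 and 3. The median SD of a gene over the arrays was 0.12 on the log2 scale. In all, 9332 genes (86.1%) stayed in the same band of 20 percentile points on each array, and 1 gene moved by 2 bands or more. The share that stayed was 93.5% in the lowest band, 91.8% in the highest and 80.4% in the middle one. A band at an end can be left on a single side only, so these shares do not compare agreement between bands. The median SD on the log2 scale was 0.11 in the lowest band, 0.12 in the middle one and 0.14 in the highest. Genes with the least spread at high level included Ent2, a nucleoside transporter, with 31727, 31862 and 32004, and the splicing factor B52 with 141925, 140145 and 140179.

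Few genes differed by over 1 on the log2 scale between arrays, namely 83 of 10844 (0.765%). That count takes the deposited values as they stand and was lower with natural logarithms. Array 3 was above the other arrays in 47 of the 83 genes and array 2 below in 22. Without array 3 the count was 12, without array 2 it was 37 and without array 1 it was 60, so arrays 2 and 3 carried most of it. drl, a receptor kinase of axon guidance and muscle attachment, differed most among genes above the median, with 1526, 1966 and 9138. Ssdp, a DNA-binding partner of LIM-domain factors, gave 1418, 1537 and 5021, and vvl, a POU factor of trachea and neurons, 2961, 2725 and 7170. The other genes with array 3 high included TwdlN (4303, 2722 and 8466), Jon99Fii (2085, 2195 and 5558), Cpr47Eg (1902, 2417 and 5162), Psi (1151, 1339 and 3137), lolal (2741, 2599 and 6472) and Mapmodulin (2269, 2298 and 5535). Osi7 went the other way, with 9920 and 9485 on arrays 1 and 2 and 3273 on array 3. lncRNA:CR42862 was low on array 2, with 22456, 8818 and 26829, and CG9083 was high there, with 1555, 4075 and 1924.

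Groups of genes also moved together between arrays by small amounts. Over all genes, 33.9% were highest on array 1, 36.3% on array 2 and 27.6% on array 3, and the shares lowest were 30.4%, 35.0% and 32.2%. Enhancer of split genes were lowest on array 2 in 10 of 10 cases and highest on array 3 in 9, with median deviations from the mean of the arrays of -0.24 and 0.27 on the log2 scale. Ribosomal protein genes were lowest on array 2 in 31 of 35 cases and highest there in 0, with a median deviation of -0.14. Of these 35 genes, 26 were in the top 1% of genes, where array 2 had a similar median deviation of -0.12. Mitochondrial ribosomal proteins were highest on array 1 in 55 of 64 cases. Osiris genes were highest on array 2 in 16 of 24 cases and lowest on array 3 in 17. Structural cuticle genes were highest on array 2 in 53 of 92.

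**Figure D4:**
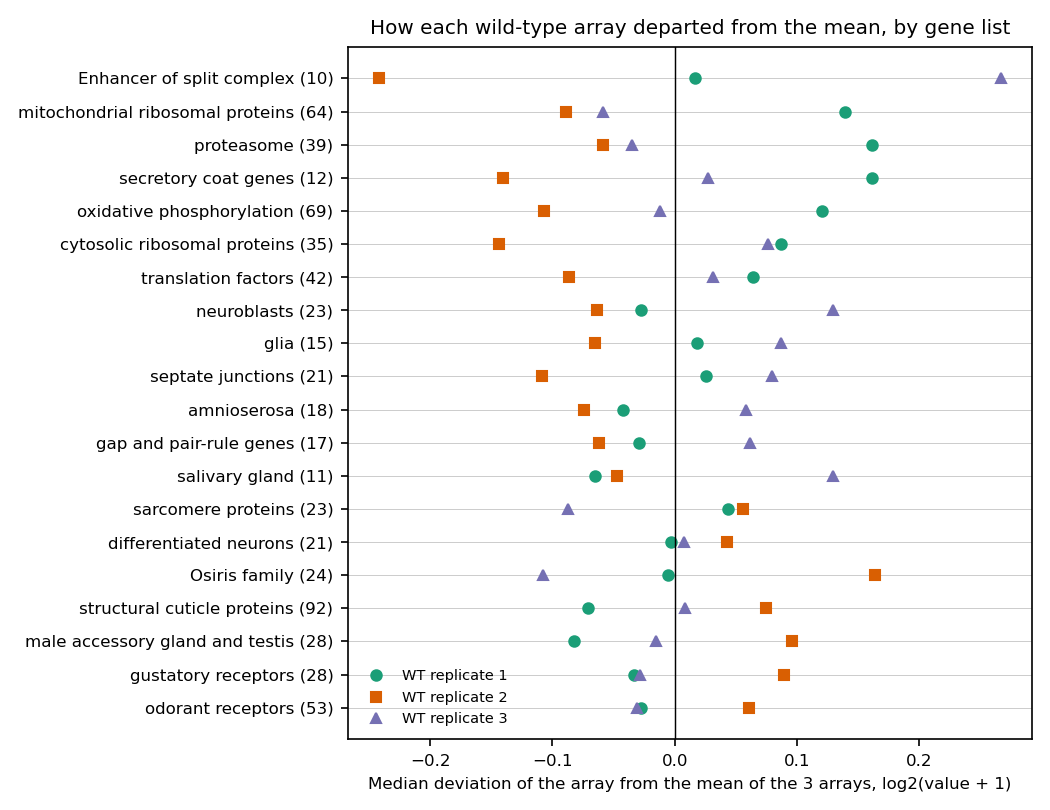
Median deviation of each array from the mean of the 3 arrays on the log2(value + 1) scale (horizontal axis) for 20 gene lists, with members measured in brackets. Replicate 2 (squares) lies at -0.24 and replicate 3 (triangles) at 0.27 for the Enhancer of split complex, and replicate 2 lies above 0 for lists that sit at the floor.

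The level of a gene and the control probe sets moved with the array. Array 2 had a median deviation of -0.12 among the top 1% of genes and 0.04 among genes at or under percentile 20, so its range was slightly compressed. The deposited table holds sets for the 3' and 5' ends of 3 fly transcripts, whose ratio rises when RNA is degraded or copied incompletely. For eIF-4a the ratio was 3.45, 8.86 and 3.17 on arrays 1, 2 and 3, for actin 4.11, 7.14 and 3.47, and for GAPDH 3.62, 4.63 and 2.80. Array 2 had the highest ratio for each. Its hybridisation spikes, bacterial and phage transcripts added to every sample, were 1.55 to 2.19 times the mean of the other arrays. The size of all these ratios depends on the uncertain scale of the deposited values. The part of these array differences in the gene groups above was not tested.

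**Figure D5:**
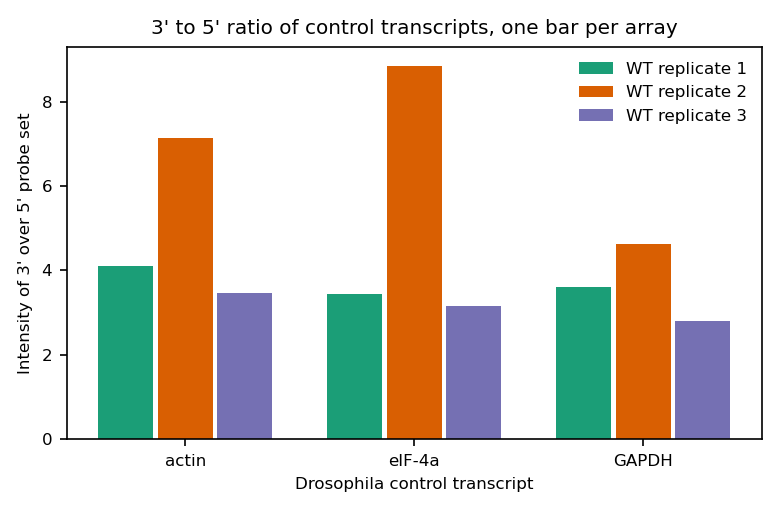
Ratio of the signal of the 3' probe set to that of the 5' probe set (vertical axis) for the Drosophila control transcripts actin, eIF-4a and GAPDH, 1 bar per WT array. Replicate 2 is the highest for all 3 transcripts, at 7.14, 8.86 and 4.63.

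Different probe sets of the same gene often differed far more than the arrays did. For 1209 genes with over 1 set, the median gap between the highest and lowest set was 27.5 percentile points. The gap was over 50 points for 249 genes (20.6%) and under 10 for 237 (19.6%). Of 344 such genes that ranked high, 70 had another set that was low. ClC-a, a chloride channel, stood at percentile 99.0 by its highest set and 2.58 by its lowest, with means of 68409 and 53.3. The chaperone Hsc70-3 stood at 97.9 and 8.77, the transferase GstO2 at 93.0 and 4.27, and the cuticle gene TwdlJ at 96.1 and 13.2. Several genes named for a tissue or pathway also had a much lower set. Hr4 stood at 93.6 and 23.5, TwdlM at 97.5 and 30.3, and sns at 84.5 and 30.1. PPO2 stood at 96.9 and 40.6, tup at 93.7 and 45.5, and mira at 98.7 and 49.3. The levels given above are those of the highest set. Whether such sets read different transcripts of the gene was not tested.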

How the data were processed

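Per the labels, biotin-labelled RNA of the 3 WT samples was hybridised to 1-colour Affymetrix-type arrays. The deposited values are whole-number linear intensities, made by the authors with RMA per the submitters' processing notes. RMA, which subtracts background and equalises distributions, works in log2, so the authors must have returned the values to a linear scale. The base of that step is not given in the sources used. If it was e, SDs, ranges and deviations on the log2 scale shrink by a factor of 0.693 and ranks do not change. The shares of summed signal held by the highest genes, and ratios over 1 between signals, would then be smaller too. On at least 1 array, 207 probe sets exceed 65535, the largest 16-bit number. Array medians were 696, 704 and 703.

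Of 14010 probe sets, 12443 had 1 gene in the platform annotation, 327 several, 1196 none named here and 44 were controls. Symbols were updated through RefSeq (49 were kept as annotated). Each gene kept the set with the highest mean log2(value + 1). Python 3.11.15 with pandas 2.3.3 and numpy 2.4.6 gave means, SDs and percentiles, which were tested on simulated data.

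The arrays, the 51 gene lists (1600 genes, 1202 of them measured) and the rules were chosen with earlier results of these data known. The naming rule covered the 30 highest named genes and the 10 highest with a CG or CR number. It also covered the 15 genes with the largest SD in the upper part of the ranking. Per list it covered up to 6 highest, 3 lowest and the most variable, besides listed genes whose role is described. Not all of these genes are named in the text. Some genes with little spread, in runs of neighbours or with unlike probe sets are named outside the rule. Alternatives covered the average over arrays, the normalization, the choice of probe set, the pseudocount (1 or 50), a filter on low genes, the bound for high genes and each array left out. No sequence was used. The chromosome and the order of genes came from RefSeq's table of the Drosophila assembly Release 6, and no coordinate is given because the build behind the array's annotation is not stated in the sources used.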

Additional observations from a re-analysis of the deposited data

Results flagged for a closer look

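Signal lay outside the named genes. Of 1196 probe sets that are unnamed here, 342 (28.6%) exceeded the signal that separates the high genes from the rest, and 4 of them exceeded every named gene. Of 327 probe sets assigned to several genes, 63 (19.3%) exceeded that signal. These sets entered no ranking, and they are given as counts because the sources used here do not pair them with 1 gene.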

How the results depend on the processing

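Under the alternatives tried, between 1736 and 2169 of the 2169 high genes and between 1927 and 2167 of the 2168 low genes kept their class. The number of lists with over 50% of their members high was 14. It was 13 without the lowest 20% of genes, 9 when only the top 10% counted as high, and 14 under the other alternatives. The count of 83 genes with a range over 1 was 11 with natural logarithms, an alternative chosen after seeing the data, between 70 and 81 under the normalization, probe set, pseudocount and low-gene alternatives, and between 12 and 60 when 1 array was left out. Leaving out array 3 gave 12, array 2 gave 37 and array 1 gave 60. Genes in the same band on each array numbered 7021 to 9950. When an array was left out, list medians shifted by -3.67 percentile points at most, for the heat-inducible heat shock genes. The largest shift was -20.3 with only single-set genes (germ cells) and -12.6 with all sets of a gene averaged (vacuolar proton pump). Without the lowest 20% of genes they shifted between -17.3 (Hox genes) and 22.2 (male accessory gland and testis). That filter ranks genes among fewer others and takes out the low members of a list, although it took out no Hox gene. It gives no count of low genes, and the median over arrays gives no agreement between them. No paired analysis was possible because only 1 group was described and no test was run.

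The order of levels below the highest foreign control (174) carries little information on transcripts. Probe sets of different genes bind differently, and 3 arrays give a coarse SD. The scale of the deposited values is uncertain by the factor named in the processing, which ranks do not feel. Cross-hybridisation of paralogues was not tested.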

Other observations

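Probe sets for the 18S ribosomal RNA of the fly gave between 40 and 56 on the 3 arrays, within or below the range of the yeast and mouse controls. The bacterial transcripts DapX, LysX, PheX, ThrX and TrpnX, another set of controls with 15 probe sets, gave between 48 and 368. Sets of ThrX, PheX and LysX exceeded the highest mouse or yeast control. The array also held 16 long noncoding and 6 antisense RNA genes, of which asRNA:CR43916 ranked last of all 10844 genes, with 34, 36 and 34.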
